A study of Mus musculus with 6 samples.

Results

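Integrins and laminins were examined in sciatic nerves of mice whose Schwann cell lineage carried a deletion of Zeb2 (Sip1 in the labels), a transcription factor with zinc fingers. The genes were taken by symbol and comprised every integrin alpha and beta subunit and every laminin chain with a row in the table. The family itself was chosen with earlier results of these data known. They numbered 36 of 20239 named genes, with 18 integrin alpha subunits, 8 integrin beta subunits and 10 laminin chains (5 alpha, 3 beta and 2 gamma). Nerves of 3 mutant and 3 control mice were taken at 25 days of age, and the RNA of each mouse was hybridised to 1 Affymetrix whole-transcript array. The mutants had the genotype DhhCre::Sip1 flox/flox, in which Cre recombinase is driven by the promoter of desert hedgehog, a gene of the Schwann cell lineage. The controls had the genotype Sip1 flox/flox, so that both groups carried the floxed alleles and only the mutants carried Cre. Whole nerves also hold endothelial, perineurial, connective tissue and immune cells, and in such tissue fewer cells of a type and less RNA per cell cannot be told apart.

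Integrins are cell surface receptors made of an alpha and a beta subunit, and the pairing of subunits sets which matrix protein is bound. Laminins are trimers of an alpha, a beta and a gamma chain and form the sheet of the basal lamina, which surrounds every Schwann cell and its axons. In peripheral nerve, Schwann cells need the laminin chains Lama2, Lama4 and Lamc1 and the receptor subunit Itgb1 to sort axons, and myelinating Schwann cells add the receptor made of Itga6 and Itgb4 on their outer surface.

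The labels were checked first. In the order of replicates 1, 2 and 3, used throughout, Zeb2 had log2 values of 10.96, 10.66 and 11.01 in mutants and of 11.67, 11.57 and 12.02 in controls. Its log2 fold change was −0.88 (SE 0.15, limma adjusted p = 0.0137), and the adjusted p was 0.0522 without mutant 1. Where the probes lie relative to the floxed part was not given in the sources used here. Schwann cell markers were present, with 6 of 8 listed genes measured. Their mean level was 10.07 to 10.53 in mutants and 10.59 to 11.23 in controls. Of the 6, 2 were lower in mutants, S100b (−1.51) and Erbb3 (−1.14), against 3.89% of all genes called lower. The other 4 did not pass, with log2 fold changes of −0.74 for Sox10, 0.47 for Gpr37l1 and 0.03 each for Cdh19 and Foxd3. Skeletal muscle markers differed between mice far more than between groups, with mean levels for replicates 1, 2 and 3 of 7.78, 12.60 and 10.08 among mutants and of 7.85, 12.84 and 10.48 among controls. Mutant 2 and control 2 were thus the samples richest in muscle RNA, called the muscle-rich samples below. Mutant 3 and control 3 lay between them and mutant 1 and control 1, and stay in when the muscle-rich samples are left out. Adipocyte markers had mean levels of 10.43 to 10.98 in mutants and 9.89 to 12.11 in controls. Of 16 muscle, 10 adipocyte, 10 pericyte and smooth muscle and 10 mast cell and neutrophil markers measured, 0 passed (limma, with 0, 0, 2 and 0 at an unadjusted p under 0.05). Over all genes 9.62% passed and 22.4% had an unadjusted p under 0.05. By Xist and Y-linked genes, mutants 1 and 2 and control 3 were male, and mutant 3 and controls 1 and 2 were female.

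In all, 13 of the 36 genes differed between mutant and control nerves, 8 of them upwards and 5 downwards. A gene was called at a limma p under 0.05 after Benjamini-Hochberg adjustment over all genes. The genes that rose were Itgb3, Itgb8, Itga1, Itga10, Itga9, Lamb2, Itga7 and Lama1, and those that fell were Itgb5, Itga6, Itga4, Itga3 and Lamb1. The share called was 36.1%, against a background of 9.62% of all genes. As the family was chosen with earlier results of these data known, its shares and median only describe these 36 genes. The count was 8 (22.2%), with 2 genes lower, without mutant 1, mutant 3 or control 2, where 4.43%, 4.5% and 6.49% of all genes were called. Without both muscle-rich samples it was also 8, with 1 gene lower, against 6.54% of all genes. Genes called higher made up 5.74% of all genes and genes called lower 3.89%. Of the 36 genes only Itgad and Itgb6 lay among the lowest 25% of all genes by mean value. When the lowest 50% were left out, the share called was 54.2% of 24 members and 18.5% of 10119 genes. The median log2 fold change of the 36 genes was 0.066, against −0.020 over all genes. The 3 mutant values lay on one side of the 3 control values in 19 of the 36 genes and in 28.1% of all genes. The changes of 4 genes reached 2-fold, which 3.37% of all genes did in either direction, and all 4 were rises.

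**Figure D1:**
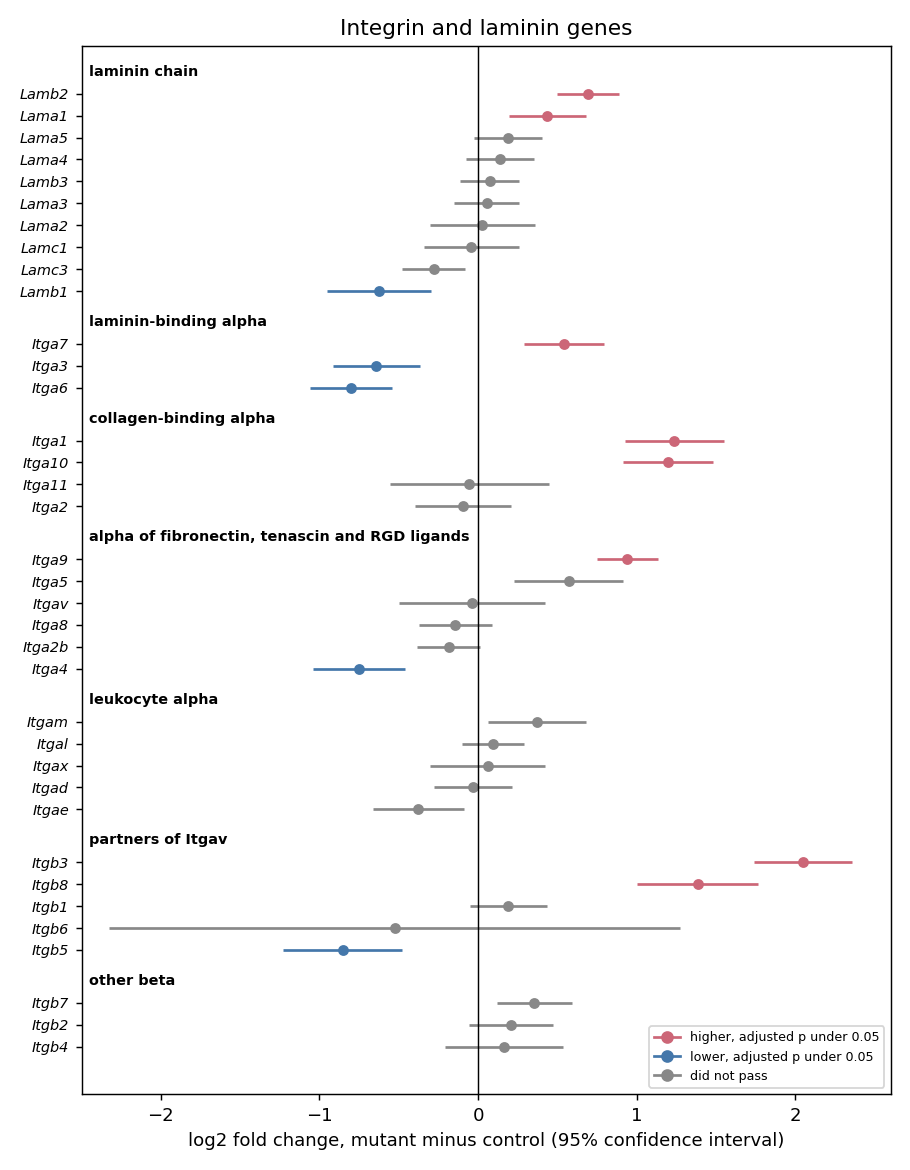
Log2 fold change (mutant minus control) of the 36 integrin and laminin genes on the x axis, grouped by role, with points for the estimates of limma and lines for their 95% confidence intervals (n = 3 mice a group). Itgb3 at 2.05 and Itgb8 at 1.38 lie farthest to the right, Itgb5 at −0.85 and Itga6 at −0.80 farthest to the left among genes that passed, and Itgb6 has the widest interval.

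Stretches of promoter sequence from RefSeq (build GRCm38.p6) are shown for the 4 members that passed the test and held an E-box of the kind that ZEB proteins bind, so that a reader can see the letters beside the values that follow. The table of promoters, which runs from 250 bases before a gene's start to 50 bases after it, had 26 windows for 23 of the 36 genes. Capitals mark the motif CAGGTG, searched on both strands, which reads CACCTG where it lies on the opposite strand. The stretch of Itga9, a gene that rose, lies at chr9:118711592-118711661 on the plus strand and ends 31 bases before the start. That of Itgb8, which also rose, lies at chr12:119238307-119238376 on the minus strand. That of Itgb5, which fell, lies at chr16:33829525-33829594 on the plus strand. That of Itga3, which also fell, lies at chr11:95076865-95076934 on the minus strand, in 1 of its windows.
Itga9: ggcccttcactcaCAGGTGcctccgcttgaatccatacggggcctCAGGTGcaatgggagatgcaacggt
Itgb8: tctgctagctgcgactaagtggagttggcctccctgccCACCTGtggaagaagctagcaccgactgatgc
Itgb5: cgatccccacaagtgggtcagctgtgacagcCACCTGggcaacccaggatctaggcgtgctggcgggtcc
Itga3: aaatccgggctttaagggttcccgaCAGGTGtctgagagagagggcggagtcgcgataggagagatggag

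Itga9 held the motif at 87 and 55 bases before its start, Itgb8 at 62, Itgb5 at 109 and Itga3 at 195. Of the 26 windows 8 held CAGGTG on either strand (30.8%), as did 20.2% of all 32851 windows. The 8 genes were Itga3, Itga9, Itga11, Itgb5, Itgb6, Itgb8, Lama5 and Lamb3, of which 2 rose, 2 fell and 4 did not pass the test. The related motif CAGGTA was in 5 windows (19.2%, against 12.0% of all windows). The motif ACAAAG, of the kind that SOX proteins bind, was in 2 windows (7.69%, against 18.7%), those of Itga3 and Itgb1. The promoter windows of Itga1, Itga10, Lamb2, Itga4 and Lamb1, which also moved, held none of the 3 motifs. Itgb3, Itga6, Itga7 and Lama1 had no window in the table. CAGGTG was thus in 4 of the 9 genes that passed and had a window, and in 8 of all 23 genes with a window. A match is a description of letters, not of binding, and its part in the changes was not tested.

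Among the laminin chains, Lamb2 rose and Lamb1 fell. Lamb2, a beta chain of many adult basal laminae, stood at 12.08, 12.01 and 12.09 in mutants and at 11.29, 11.35 and 11.46 in controls. All mutant values were higher than all control values, and the spread within groups was small. Lamb2 rose by 0.69 on the log2 scale (SE 0.08, 1.61-fold, adjusted p = 0.00359). Lamb1, the beta chain of the main Schwann cell laminin, stood at 11.51, 11.12 and 11.34 in mutants and at 11.84, 11.85 and 12.17 in controls, again without overlap. Lamb1 fell by 0.62 (SE 0.14, 1.54-fold, adjusted p = 0.0357). Within arrays, the difference between Lamb2 and Lamb1 was therefore 1.31 larger in mutants on the log2 scale, with SDs between mice of 0.16 in mutants and 0.11 in controls. This pair was chosen after its values were seen and has no test.

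Markers of perineurial cells, which ensheath the nerve bundles, moved with these rises. The 9 markers were chosen with earlier results of these data known. They had a mean level of 10.32 to 10.46 in mutants and 9.27 to 9.49 in controls, with a median log2 fold change of 0.99. Of the 9, 8 rose (88.9%, against 5.74% of all genes called higher), among them Moxd1 (2.03), Cldn1 (1.53) and Slc2a1 (0.84). Their part in the rises of Lamb2, of Lama1 and of the integrin subunits described after them was not tested.

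The alpha chains of the Schwann cell laminins differed little. Lama2, which is mutated in a congenital muscular dystrophy with neuropathy, stood at 12.12 ± 0.23 in mutants and 12.10 ± 0.15 in controls (mean ± SD, n = 3 each). Its log2 fold change was 0.03, with a 95% confidence interval of −0.31 to 0.36. Lama4, the other alpha chain of endoneurial basal laminae, stood at 12.08 ± 0.09 against 11.94 ± 0.09 (log2 fold change 0.14, interval −0.07 to 0.36, adjusted p = 0.436). The gamma chain Lamc1, shared by most laminins, stood at 12.22 ± 0.17 against 12.26 ± 0.16 (log2 fold change −0.04, interval −0.34 to 0.26). The intervals of these 3 chains all include 0 and reach from −0.34 to 0.36 at the outermost.

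Of the other chains, Lama1, an embryonic alpha chain, rose. Its values were 7.80, 7.60 and 7.77 in mutants and 7.43, 7.22 and 7.20 in controls, low on the scale of these arrays, and did not overlap. The log2 fold change was 0.44 (SE 0.10, adjusted p = 0.0433). Lama5, Lama3 and Lamb3 lay between 0.05 and 0.19 and did not pass. Lamc3, a gamma chain outside the main nerve laminins, was 8.23 to 8.24 in mutants and 8.40 to 8.58 in controls, and this separation did not pass the test (log2 fold change −0.28, SE 0.08, adjusted p = 0.0945).

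Of the laminin calls, that of Lamb2 held in all 19 alternative settings, while those of Lamb1 and Lama1 did not. Lamb1 missed the threshold whichever of the 6 arrays was left out (adjusted p 0.0591 for mutant 1, 0.0761 for mutant 2, 0.128 for mutant 3, 0.057 for control 1, 0.0689 for control 2 and 0.0774 for control 3). Lama1 missed it on leaving out mutant 1 (0.185), mutant 3 (0.173), control 2 (0.128) or control 3 (0.108) and with arrays centred on their medians (0.076), and both genes missed the threshold with sex as a covariate (Lamb1 0.0515, Lama1 0.0682) and without both muscle-rich samples (0.107 and 0.102).

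**Figure D2:**
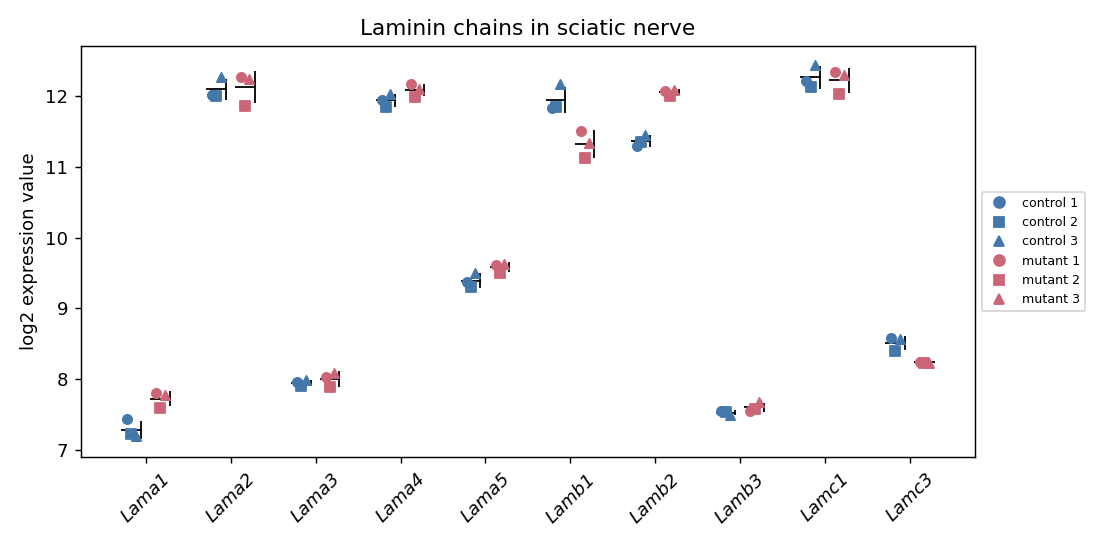
Log2 expression values of the 10 laminin chains in each of 3 control (blue) and 3 mutant (red) mice, with marker shapes for the replicate number, horizontal lines for group means and vertical lines for 1 SD on either side. Lamb1 is lower and Lamb2 higher in every mutant than in every control, while Lama2, Lama4 and Lamc1 overlap.

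The alpha subunits that bind laminin split in the same manner, with Itga6 and Itga3 lower and Itga7 higher. Itga6, which pairs with Itgb1 or Itgb4, stood at 11.74, 11.62 and 11.55 in mutants and at 12.33, 12.35 and 12.63 in controls. Every mutant lay below every control, and Itga6 fell by 0.80 (SE 0.11, 1.74-fold, adjusted p = 0.00594). Itga3, an alpha subunit of epithelial laminin receptors, stood at 8.61, 8.46 and 8.57 in mutants and at 9.01, 9.17 and 9.39 in controls. Itga3 fell by 0.64 (SE 0.12, adjusted p = 0.0166).

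Itga7, the laminin receptor subunit of muscle fibres that Schwann cells also carry, stood at 11.07, 11.05 and 11.20 in mutants and at 10.54, 10.42 and 10.74 in controls. Itga7 rose by 0.54 (SE 0.11, 1.45-fold, adjusted p = 0.0233). The muscle-rich mutant 2 and control 2 had the lowest Itga7 values of their groups. The adjusted p was 0.0406 with the mean of the muscle markers as a covariate, and the call was lost without both muscle-rich samples (0.0925). The perineurial markers were higher in the same mutants, and their part in the rise of Itga7 was not tested. The difference between Itga7 and Itga6 within arrays was 1.34 larger in mutants (SD 0.16 and 0.07), a pair likewise chosen after its values were seen.

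Itgb4, the beta subunit that pairs with Itga6 in myelinating Schwann cells and perineurial cells, did not pass the test. It stood at 11.96, 11.95 and 11.97 in mutants and at 11.65, 11.59 and 12.16 in controls (log2 fold change 0.16, interval −0.21 to 0.53, adjusted p = 0.616). The control mice spread over a wider range than the mutants and enclosed them. Itgb4 was not one of the perineurial markers, and the part of those markers in its values was not tested. Itgb1, the common partner of the alpha subunits named so far, stood at 11.57 ± 0.08 against 11.38 ± 0.15 (log2 fold change 0.19, interval −0.05 to 0.43, adjusted p = 0.347).

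The call of Itga6 held in all 19 settings. Itga3 missed the threshold on leaving out mutant 1 (adjusted p = 0.0629), mutant 3 (0.0715), control 2 (0.0521) or both muscle-rich samples (0.0995), and Itga7 missed it on leaving out mutant 1 (0.0918), mutant 3 (0.11), control 1 (0.0613) or control 2 (0.0687), or with sex as a covariate (0.064).

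The collagen-binding alpha subunits held 2 of the larger rises. Itga1, which binds collagens of basal laminae and is known from nonmyelinating Schwann cells, stood at 11.17, 10.76 and 11.17 in mutants and at 9.89, 9.73 and 9.77 in controls. The lowest mutant, the muscle-rich mutant 2, still lay above the highest control. Itga1 rose by 1.24 (SE 0.13, 2.36-fold, adjusted p = 0.00233). Itga10, a receptor subunit for cartilage-type collagens, stood at 9.07, 8.69 and 8.90 in mutants and at 7.81, 7.65 and 7.61 in controls. Itga10 rose by 1.20 (SE 0.12, 2.29-fold, adjusted p = 0.0019).

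The other collagen-binding subunits did not pass. Itga2, a collagen receptor subunit of platelets and epithelia, stood at 9.64 ± 0.20 against 9.74 ± 0.13 (log2 fold change −0.10, interval −0.40 to 0.21). Itga11, a subunit of fibroblasts, stood at 8.32 ± 0.14 in mutants and 8.38 ± 0.43 in controls, where control 3 at 7.89 lay below control 1 at 8.53 and control 2 at 8.71. Its log2 fold change was −0.06, with an interval of −0.56 to 0.44. The fibroblast markers had a mean level of 11.82 to 12.08 in mutants and 11.55 to 11.89 in controls. Of these 11 markers 2 rose (18.2%, against 5.74% of all genes called higher). Their part in the collagen receptor values was not tested.

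Of the alpha subunits for fibronectin, tenascin and related ligands, Itga9 rose and Itga4 fell. Itga9, which binds tenascin-C, osteopontin and Svep1, stood at 10.13, 10.22 and 10.30 in mutants and at 9.23, 9.32 and 9.28 in controls. The groups lay well apart, with SDs of 0.08 and 0.04, and Itga9 rose by 0.94 (SE 0.08, 1.92-fold, adjusted p = 0.00117). Itga4, which binds fibronectin and the adhesion molecule Vcam1, stood at 8.18, 7.78 and 7.96 in mutants and at 8.61, 8.79 and 8.77 in controls. Itga4 fell by 0.75 (SE 0.12, 1.68-fold, adjusted p = 0.0111). The groups did not overlap in either gene.

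Itga5, the subunit of the classical fibronectin receptor, lay near the threshold. Its values were 10.27, 9.75 and 10.08 in mutants and 9.57, 9.38 and 9.44 in controls, with no overlap, and the log2 fold change was 0.57 (SE 0.14, adjusted p = 0.0548). In the fit with a replicate block Itga5 passed as higher (adjusted p = 0.0265). It passed in 7 of the 19 settings and in 1 of the 6 fits that left out 1 array, with a limma adjusted p of up to 0.196. Itga8, which binds nephronectin, and Itga2b, the platelet subunit, lay at −0.14 and −0.19 and did not pass. The call of Itga4 was lost without mutant 3 (adjusted p = 0.057) and without both muscle-rich samples (0.0641), while the calls of Itga1, Itga10 and Itga9 held in all 19 settings.

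**Figure D3:**
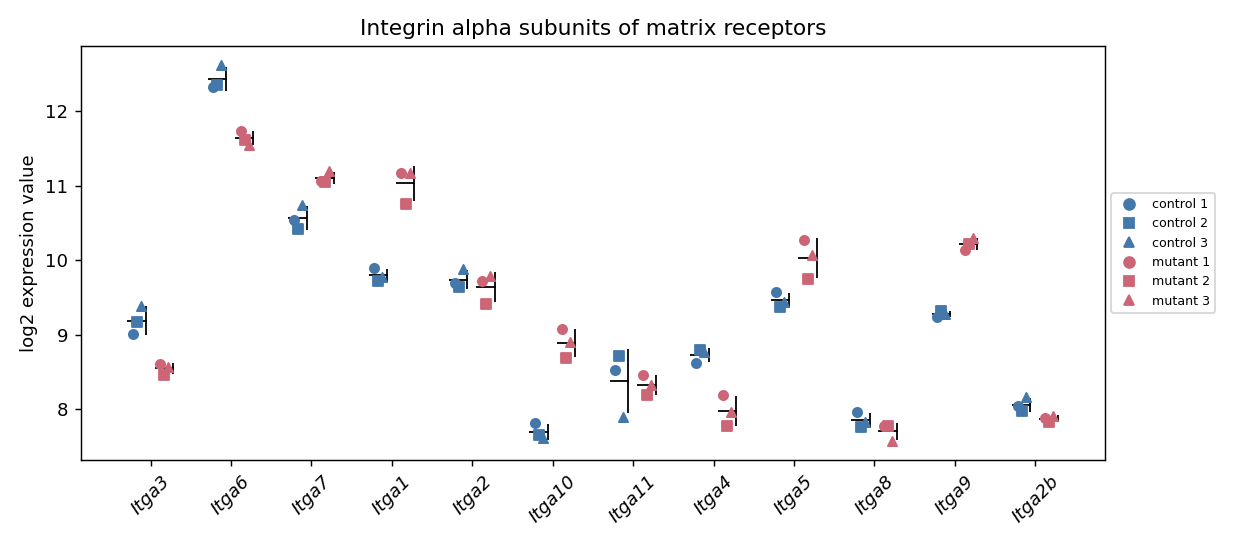
Log2 expression values of 12 integrin alpha subunits of matrix receptors in 3 control (blue) and 3 mutant (red) mice, with marker shapes for the replicate number, horizontal lines for group means and vertical lines for 1 SD on either side. Itga1, Itga10, Itga9 and Itga7 are higher and Itga3, Itga6 and Itga4 lower in every mutant than in every control.

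Of the 5 beta subunits that can pair with Itgav, Itgb3 and Itgb8 rose, Itgb5 fell, and Itgb1 and Itgb6 did not pass. Itgav itself, the alpha subunit of receptors for vitronectin and latent TGF-beta, stood at 11.18, 10.67 and 11.08 in mutants and at 10.76, 10.92 and 11.36 in controls. The groups overlapped, with a log2 fold change of −0.04 and an interval of −0.50 to 0.42. Between mice of the same replicate number Itgav differed by 0.42, −0.26 and −0.27.

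Itgb3, which forms the vitronectin receptor with Itgav and the fibrinogen receptor of platelets with Itga2b, showed the largest change of the 36 genes. It stood at 11.36, 10.93 and 11.35 in mutants and at 9.13, 9.19 and 9.17 in controls. The SD of the controls was 0.03 and that of the mutants 0.25, and the lowest mutant was the muscle-rich mutant 2. Itgb3 rose by 2.05 (SE 0.13, interval 1.74 to 2.35, 4.13-fold, adjusted p = 0.000374). The rise was 1.97 between males and 2.19 between females, and 2.22, 1.74 and 2.18 between mice numbered 1, 2 and 3. Of the platelet markers 0 of 6 measured genes passed (limma, 0 also at an unadjusted p under 0.05), their mean level was 7.46 to 7.65 in mutants and 7.40 to 7.63 in controls, and Itga2b was 7.87 ± 0.05 against 8.06 ± 0.09. Endothelial markers, of another cell type that carries Itgb3, had mean levels of 10.14 to 10.22 in mutants and 10.06 to 10.49 in controls. Of these 10 markers 1, Cldn5, was lower (−0.42), against 3.89% of all genes called lower. At an unadjusted p under 0.05 (limma) there were 4, Cldn5, Kdr (−0.57), Egfl7 (−0.39) and Cdh5 (0.38), against 22.4% of all genes.

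Itgb8, which forms with Itgav a receptor that activates latent TGF-beta, stood at 13.22, 12.99 and 13.05 in mutants and at 11.49, 11.57 and 12.06 in controls. All mutants were higher, and control 3 was the highest control. Itgb8 rose by 1.38 (SE 0.16, interval 1.00 to 1.77, 2.61-fold, adjusted p = 0.00327), with 1.73, 1.42 and 0.998 between mice numbered 1, 2 and 3.

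Itgb5, a further vitronectin receptor subunit, went the other way. It stood at 10.29, 10.03 and 10.43 in mutants and at 10.87, 11.08 and 11.37 in controls, without overlap, and fell by 0.85 (SE 0.16, 1.81-fold, adjusted p = 0.0186). The fall was 1.21 on the log2 scale between males and 0.54 between females, with 1 control male and 1 mutant female, so this difference was not tested. Within arrays, Itgb3 against Itgb5 was 2.90 larger in mutants (SD 0.09 and 0.24) and Itgb8 against Itgb5 was 2.24 larger (SD 0.19 and 0.10). These pairs were also chosen after their values were seen.

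Itgb6, an epithelial subunit that likewise activates latent TGF-beta, was highest in the muscle-rich mouse of each group. Its values were 5.73, 7.37 and 5.89 in mutants and 5.92, 8.54 and 6.11 in controls, and the groups overlapped. Its log2 fold change was −0.53 with an interval of −2.33 to 1.27.

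The calls of Itgb3 and Itgb8 held in all 19 settings, with log2 fold changes of 1.97 to 2.20 and 1.28 to 1.56. Itgb5 missed the threshold on leaving out mutant 1 (adjusted p = 0.0739), control 2 (0.056) or both muscle-rich samples (0.0961).

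**Figure D4:**
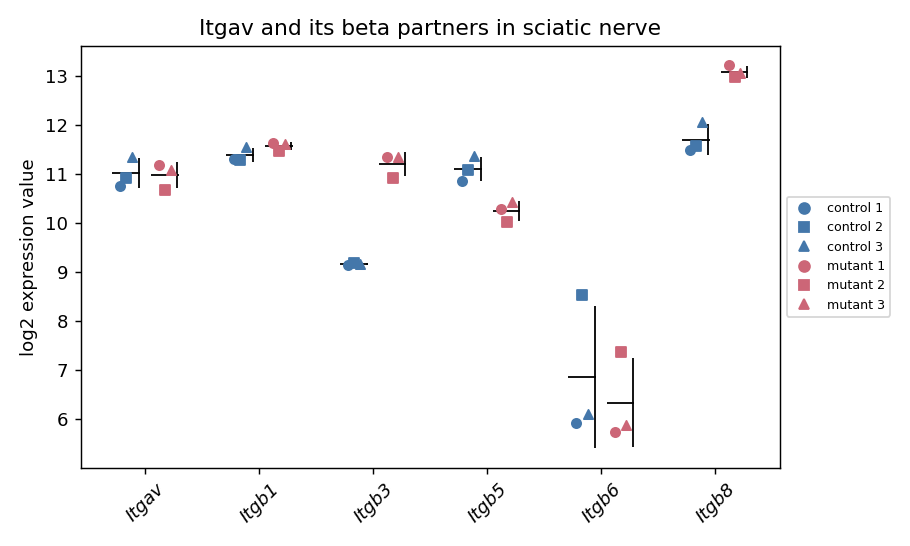
Log2 expression values of Itgav and 5 beta subunits that can pair with it in 3 control (blue) and 3 mutant (red) mice, with marker shapes for the replicate number, horizontal lines for group means and vertical lines for 1 SD on either side. Itgb3 and Itgb8 are higher and Itgb5 lower in every mutant than in every control, Itgav overlaps, and Itgb6 is highest in control 2 and mutant 2.

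None of the 5 leukocyte alpha subunits passed the test, nor did their partners Itgb2 and Itgb7. Of the 5, 2 had an unadjusted p under 0.05 (limma), Itgam and Itgae, against 22.4% of all genes. Itgam, the alpha subunit of the complement receptor of macrophages and neutrophils, stood at 8.003, 7.72 and 8.07 in mutants and at 7.72, 7.57 and 7.39 in controls (log2 fold change 0.37, SE 0.13, adjusted p = 0.143). Its partner Itgb2, the shared beta subunit of leukocytes, stood at 8.53 ± 0.19 against 8.32 ± 0.06 (log2 fold change 0.21, interval −0.06 to 0.47). Macrophage markers leaned the same way, as 11 of 11 had a positive log2 fold change (0.08 to 0.57), against 9291 of all 20239 genes. None passed (limma, 5 at an unadjusted p under 0.05, against 22.4% of all genes). Their mean levels were 9.14 to 9.47 in mutants and 8.88 to 9.18 in controls.

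The other leukocyte alpha subunits and Itgb7 were low on the arrays. Itgae, the alpha subunit of T cells in epithelia, stood at 6.78, 6.94 and 6.58 in mutants and at 7.27, 7.02 and 7.13 in controls (log2 fold change −0.38, adjusted p = 0.116). Its partner Itgb7, which also pairs with Itga4, stood at 7.73, 7.84 and 8.01 in mutants and at 7.59, 7.47 and 7.45 in controls (log2 fold change 0.35, SE 0.10, adjusted p = 0.0785). Neither gene's groups overlapped, and the partners leaned in opposite directions. Itgal, Itgax and Itgad lay between −0.03 and 0.09. Of 10 measured lymphocyte markers 1, the T cell receptor gene Trac, rose, by 1.66 (10%, against 5.74% of all genes called higher). Cd3e stood at 0.14 and Cd3d at −0.13.

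Genes that work with integrins and laminins were followed in 3 lists. These lists were chosen with earlier results of these data known, so their shares and medians only describe the genes listed. Among 25 measured integrin ligands other than laminins, 9 rose, 1 fell and 15 did not pass, with a median log2 fold change of 0.53 against −0.020 over all genes. The share called was 40% against 9.62% of all genes. Thbs1, a thrombospondin that binds integrins and activates latent TGF-beta, stood at 13.11, 12.39 and 12.90 in mutants and at 11.09, 10.77 and 11.44 in controls and rose by 1.70 (SE 0.23, adjusted p = 0.00574). Ccn2, a matricellular growth factor, rose by 1.64 and Tgfbi, a collagen-associated integrin ligand, by 1.20.

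Ligands of subunits described above were found both among the genes that rose and among those that did not pass. Nephronectin (Npnt), the ligand of Itga8, rose by 1.13 (SE 0.23), Svep1, a ligand of Itga9, by 0.92 (SE 0.22), and the elastic fibre proteins Fbln5 and Emilin1 by 0.99 and 0.64. Fibronectin (Fn1), the ligand of Itga5, rose by 0.65 (SE 0.12), and Icam1, the ligand of Itgal and Itgam, by 0.56. Tenascin-C (Tnc), a ligand of Itga9, did not pass (log2 fold change 0.83, adjusted p = 0.085), though it did with the replicate block (0.0215). Vcam1, a ligand of Itga4, stood at −0.21 (adjusted p = 0.382) and vitronectin (Vtn), a ligand of the receptors that Itgav forms with Itgb3 and Itgb5, at 0.12 (0.433), and neither passed. The 1 gene that fell was Cdh1, E-cadherin, a ligand of Itgae and an adhesion protein within the myelin sheath, at 10.12, 9.65 and 10.04 in mutants and 10.86, 11.05 and 11.50 in controls (log2 fold change −1.20, SE 0.19, adjusted p = 0.0111).

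Of 28 measured genes of the adhesion machinery inside the cell, 3 rose, 2 fell and 23 did not pass, with a median of −0.014. The share called was 17.9% against 9.62% of all genes, and 9 genes had an unadjusted p under 0.05, as did 22.4% of all genes. The kinase Src rose by 0.88 (SE 0.15), the focal adhesion protein Zyx by 0.69 (SE 0.09) and vinculin (Vcl) by 0.56 (SE 0.10). The tetraspanin Cd9, which associates with integrins and is abundant in myelinating Schwann cells, fell by 0.89 (SE 0.17), and Lims2, an adaptor of integrin-linked kinase, by 0.62 (SE 0.12).

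Of 14 measured partners of laminin in the basal lamina and other laminin receptors, 3 rose, none fell and 11 did not pass, with a median of −0.0052. The share called was 21.4% against 9.62% of all genes, and 6 genes had an unadjusted p under 0.05 (limma), against 22.4% of all genes. Netrin-4 (Ntn4), which binds laminin gamma chains and is also one of the perineurial markers used here, rose by 0.63 (SE 0.08), and the collagen IV chains Col4a3 and Col4a4 by 0.48 and 0.33. Over the 3 lists 18 genes passed, and the number was 8 without mutant 1 and 6 without mutant 3. Thbs1, Ccn2, Tgfbi, Zyx and Ntn4 passed in all 19 settings, and each of the other 13 genes missed the threshold in at least 1. Col4a4 (limma adjusted p = 0.045) passed in only 7 of the 19 and Svep1 (0.0448) in 12. Of the 6 fits that left out 1 array, Col4a4 and Svep1 each passed in 1, and Fn1 and Npnt each in 2.

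**Figure D5:**
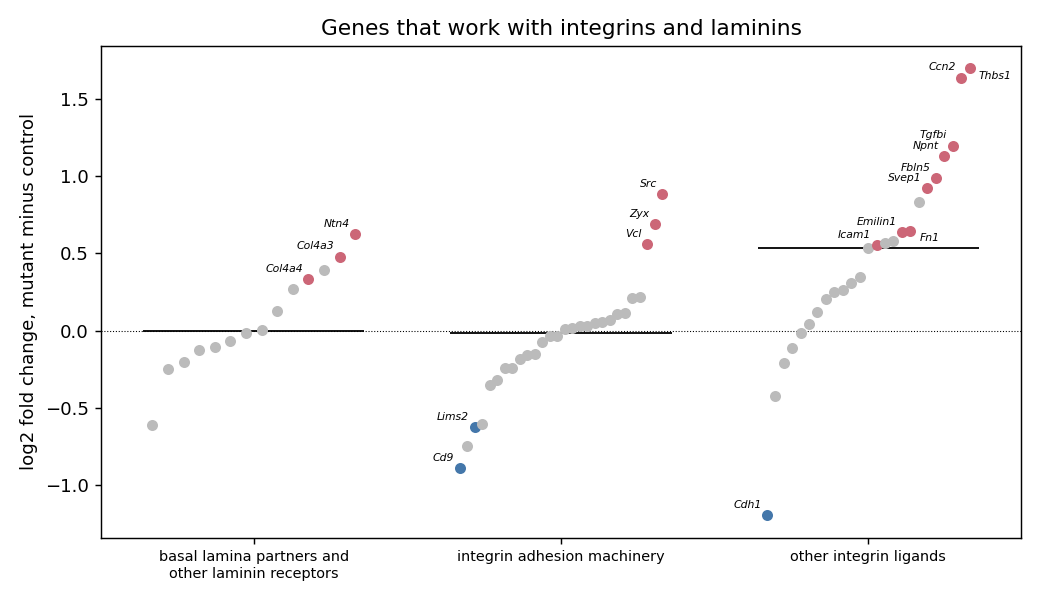
Log2 fold change (mutant minus control, y axis) of the members of 3 lists of genes that work with integrins and laminins, sorted within each list, with red for genes that rose, blue for genes that fell, grey for genes that did not pass and a horizontal line for the list's median. The ligand list has its median at 0.53, and the other lists have medians near 0. The lists were chosen with earlier results of these data known.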

How the data were processed

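The authors deposited 1 table of log2 expression values, with 1 value per gene-level probe set and mouse, from total RNA extracted with Trizol and hybridised to 1-colour arrays, per the labels' protocols. The log base was read from the values (3.55 to 14.52). Limma is named, with no version, in the submitters' processing notes. How values were background-corrected, normalized and summarised was not given in the sources used here. Array medians were 7.995 to 8.08. Arrays have no read depth, their number limits the precision, and low values may be background.

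Of 21225 probe sets 20239 had 1 symbol and were tested with limma 3.58.1 in R 4.3.3 (lmFit, eBayes, two-sided, mutant minus control, Benjamini-Hochberg adjustment over all 20239 genes, threshold 0.05). SE is moderated, and groups are given as mean ± SD. The fit was tested on simulated data: it recovered 22.8% of changes of 0.5, 71.3% of 1, 95% of 2 and 98.9% of 4 on the log2 scale over 20239 genes, with 4.73% false calls. Changes were put into a small share of genes, and noise was drawn separately for each gene. In the real data 9.62% of genes were called and muscle markers varied together, so these rates need not hold there.

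Genes and lists were chosen with earlier results of these data known. All integrin and laminin genes and the list members that passed could be named. Vcam1, Vtn, Tnc and Tns3, list members that did not pass, were named outside that rule. Zeb2, Xist and Y-linked genes served as checks, and further cell type markers were named after their values were seen. The labels call the samples biological replicates and number them 1 to 3 in both groups. Deviations from group means correlated at 0.36, 0.574 and 0.295 between same-numbered samples, all over 0.1. Between differently numbered samples they correlated at −0.607 to 0.00074, except for mutant 1 with control 3 at 0.303. This pairing was read from the data, and the labels do not state it. The main fit did not use it, and a fit with the replicate block was an alternative. Other alternatives filtered low values, changed the normalization, the prior or the weights, added 16 to linear values, tested every probe set or left out single arrays. Those with sex or a muscle or adipocyte score, or without both muscle-rich samples, were chosen after seeing the data. Figures were drawn with matplotlib 3.10.9.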

Additional observations from a re-analysis of the deposited data

How the results depend on the processing

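Of the 13 calls among integrin and laminin genes, 7 (Itgb3, Itgb8, Itga1, Itga10, Itga9, Lamb2 and Itga6) held in all 19 settings, and none of the 13 changed direction. Leaving out 1 array at a time gave 896 to 2021 calls over all genes, 6 to 9 integrin and laminin genes higher and 2 to 4 lower, 6 to 18 calls in the partner lists, and a median of 0.053 to 0.115 for the 36 genes. The fewest calls over all genes came without mutant 1 (896) and mutant 3 (910), and the 2 lower genes without mutant 1, mutant 3 or control 2. Array weights gave 3655 calls over all genes and a median of 0.14 for the 36 genes. The median was 0.15 without the lowest 50% of genes and 0.015 with arrays centred on their medians. Without both muscle-rich samples 1 gene was lower, Itga6. The cause of these shifts was not tested, beyond the fewer genes or arrays that the filters and omissions leave.

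With the replicate block 2047 genes differed, 9 of the 36 genes were higher and 5 lower, and 19 genes of the partner lists passed. Among the 36 genes the block changed only the call of Itga5, and in the lists it ended that of Col4a4 (adjusted p = 0.0949) and added Tns3, which was lower (0.0305), and Tnc, which was higher (0.0215).

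Some genes that did not pass changed sign. With quantile normalization repeated Itgad was at 0.042 and Lamc1 at 0.013, with centred arrays Lama2 at −0.025, and with array weights Itga2 at 0.0049, Itgav at 0.12 and Lamc1 at 0.084. Itga11 was at 0.064 with sex and 0.055 with the adipocyte score as a covariate, where Lama2 was at −0.040. Without both muscle-rich samples Itga11 was at 0.18, Itgav at 0.073 and Itgax at −0.069. Leaving out 1 array gave −0.30 to 0.11 for Itga11, −0.17 to 0.019 for Itga2, −0.12 to 0.037 for Itgad, −0.16 to 0.13 for Itgav, −0.056 to 0.23 for Itgax, −1.05 to 0.31 for Itgb6, −0.047 to 0.16 for Lama2 and −0.11 to 0.057 for Lamc1.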
